A study of Mus musculus with 28 samples.

Results

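CD4+ T cells that had been polarised to the Th17 type before transfer were compared with cells polarised to the Th1 type, 15 days after transfer into mice and after 2 h of renewed stimulation. The comparison held 4 Th17 arrays and 2 Th1 arrays, which are 6 of the 28 arrays of the series and were chosen by their titles. Th1 was therefore measured on 2 arrays only, and the 4 Th17 arrays differed in the strength of their response. All donor cells came from BwTRP1 Rag1-/- mice, a strain that makes a transgenic T cell receptor specific for the melanocyte protein TRP1, and lacks other mature T and B cells. Th17 cultures contained IL-1, IL-6, IL-21 and TGFβ2 with antibodies to IL-2, IL-4 and IFN-γ, and later IL-23, whereas Th1 cultures contained IL-12 and an antibody to IL-4. Medium with IL-2 was given to both after the first days of culture. The recipients were sublethally irradiated B6.PL mice, whose own T cells carry Thy1.1. Donor cells were taken from spleens and inguinal lymph nodes, enriched for CD4 and sorted for Thy1.2. Each sample was then split, and one part was stimulated with anti-CD3 and anti-CD28 while the other stayed unstimulated. The unstimulated parts of day 15 (4 Th17 and 2 Th1 arrays) and the restimulated cells of day 5 (3 and 3) are used beside the main comparison. No label states that arrays of a group came from separate recipients, so a p-value here weighs a difference against array-to-array spread, which may be technical. The labels state neither ages nor how many recipients were used or whether their organs were pooled.

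When its receptor is engaged, a T cell activates the transcription factors NFAT, AP-1 and NF-kappaB, and within minutes transcribes early genes such as those of the Nr4a, Egr and Fos families. Cytokine and chemokine genes follow, and which of them are opened depends on the lineage. Th1 cells are known for IFN-γ and the factor T-bet (Tbx21), and Th17 cells for IL-17A, IL-17F and the receptor for IL-23.

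All values are log2 RMA levels, in which a difference of 1 is a 2-fold change. Arrays correlated at 0.991 to 0.996 within the Th17 group and at 0.987 between the Th1 arrays, and array medians ran from 6.97 to 7.09. No detection calls were used, so levels near these medians are not shown to lie above background. The 7 measured genes of CD4 T cells averaged 12.33 to 12.43 on the Th17 arrays and 12.26 and 12.44 on the Th1 arrays, and none of the 7 passed the test. The 2 CD8 genes averaged 7.15 to 7.33 and 7.12 to 7.28, and the 8 B cell genes 6.28 to 6.55 and 6.28 to 6.66. Erythroid markers were lower in Th17, with list means of 7.63, 7.67, 7.84 and 7.85 against 8.78 and 8.30, and 3 of 5 members passed the test, led by Slc4a1, the red cell anion exchanger (9.39 against 10.90 on average). The 9 neutrophil markers averaged 6.66 to 7.79 in Th17 and 6.36 and 6.52 in Th1, with 1 member called, Elane. Of 9 dendritic cell and MHC class II genes 3 were lower, and of 11 myeloid genes 1 was lower (Itgam). Of 5 NK cell genes 1 was lower (Klri2), and in unstimulated cells 4 were, where 2.28% of all genes were lower. For the restimulated comparison, 2.98% of all genes were called lower in Th17 and 3.45% higher. A fit with the erythroid mean as a covariate called 946 genes between the types, 465 of them among the 1282 called without it. Restimulation lowered 5 of the 5 erythroid markers in Th17 (11.1% of all genes) and 2 in Th1 (4.63% of all genes), so this covariate also varied with stimulation. The part of the other cell types was not tested, and in such bulk samples fewer cells of a type and less RNA per cell cannot be told apart.

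Th17 and Th1 cells differed at 1282 of 19938 genes (6.43%) at a limma adjusted p under 0.05. Of these, 688 were higher in Th17 (3.45%) and 594 lower (2.98%), and 224 differed at least 2-fold (1.12%), 100 higher (0.502%) and 124 lower (0.622%). On 1168 of the called genes (5.86% of all) the Th17 and Th1 arrays did not overlap, as they did not on 17.6% of all genes (8.08% with Th17 higher, 9.49% with Th17 lower). The count depended on the Th1 arrays: it was 619 without Th1 array 1 and 2391 without Th1 array 2, against 913 to 1692 when a Th17 array was left out. In all, 316 genes (180 higher, 136 lower) were called in the same direction whichever of the 6 arrays was left out. A model of only these 6 arrays called 394.

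Among the largest differences were cytokine and chemokine genes, whose measured difference was smaller between unstimulated parts, and genes that differed between unstimulated parts too, although no gene passed a test of that contrast. Promoters of 2 genes of each kind are shown so that their sequences can be set beside their values, as RefSeq windows of 250 bases before to 50 after the transcription start on build GRCm38.p6. Il13, a type 2 cytokine, lies at chr11:53634653-53634952 on the minus strand, and Ccl3, the chemokine MIP-1α, at chr11:83649329-83649628 on the minus strand. Dapl1 lies at chr2:59484403-59484702 on the plus strand, and Pcsk1, which encodes a prohormone convertase, at chr13:75089607-75089906 on the plus strand. Capitals mark the core of NFAT sites, GGAAA, on either strand.
Il13: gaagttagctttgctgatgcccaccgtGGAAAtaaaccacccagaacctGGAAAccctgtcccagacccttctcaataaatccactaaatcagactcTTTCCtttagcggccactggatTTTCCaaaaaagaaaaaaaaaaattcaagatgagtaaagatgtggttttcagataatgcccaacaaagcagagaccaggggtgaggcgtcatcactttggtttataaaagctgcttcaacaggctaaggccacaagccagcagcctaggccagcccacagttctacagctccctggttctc
Ccl3: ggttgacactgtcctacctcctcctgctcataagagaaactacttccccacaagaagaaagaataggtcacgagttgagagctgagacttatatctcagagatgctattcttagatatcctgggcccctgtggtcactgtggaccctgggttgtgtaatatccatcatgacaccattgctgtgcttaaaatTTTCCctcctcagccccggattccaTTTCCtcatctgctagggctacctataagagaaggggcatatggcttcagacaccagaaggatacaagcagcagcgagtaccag
Dapl1: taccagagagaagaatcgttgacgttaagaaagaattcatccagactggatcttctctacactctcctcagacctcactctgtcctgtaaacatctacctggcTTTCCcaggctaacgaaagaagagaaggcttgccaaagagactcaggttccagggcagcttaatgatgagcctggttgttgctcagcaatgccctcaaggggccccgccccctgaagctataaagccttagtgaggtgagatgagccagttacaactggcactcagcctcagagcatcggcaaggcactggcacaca
Pcsk1: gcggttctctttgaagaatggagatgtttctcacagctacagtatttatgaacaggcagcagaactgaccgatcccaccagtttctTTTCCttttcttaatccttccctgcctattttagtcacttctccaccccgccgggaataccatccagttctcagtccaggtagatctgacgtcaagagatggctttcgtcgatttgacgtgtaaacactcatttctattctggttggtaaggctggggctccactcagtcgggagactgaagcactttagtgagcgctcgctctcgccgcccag
The Il13 window held 4 matches, the Ccl3 window 2, and those of Dapl1 and Pcsk1 1 each. The windows of Il3 and Xcl1, not printed, also held 1 each, so the number of matches did not separate the 2 kinds of gene. GGAAA was present in 61.3% of 32851 such windows of all genes. The AP-1 letters TGANTCA (7.81% of all windows) and the NF-kappaB consensus (1.47%), searched on both strands, had no match in any of these 6 windows. The search covers these letters in these windows only and says nothing of binding.

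Early genes answered stimulation in cells of both types: restimulation raised 27 of 30 in Th17, where it raised 6.49% of all genes, and 22 of 30 in Th1, where it raised 2.65%. Nr4a1, an orphan nuclear receptor induced by the T cell receptor, stood at 13.31, 12.96, 12.74 and 12.75 on the Th17 arrays and at 13.51 and 13.02 on the Th1 arrays. The groups overlapped and the difference of -0.33 did not pass (limma adjusted p = 0.343). Against the unstimulated parts it rose by 2.93 in Th17 and 3.33 in Th1. Egr1, a zinc finger factor, rose by 1.58 and 1.62, and Atf3, a stress-induced factor, by 4.11 and 3.74, with no call between the types. Myc, a transcription factor of cell growth, read 11.87, 10.75, 10.66 and 10.70 in Th17 and 11.89 and 10.61 in Th1, with array 1 high in both types and no call (-0.25, 0.77). Cd69, which holds activated cells in lymphoid tissue, was at 12.03 to 12.63 in Th17 and at 12.22 and 12.66 in Th1. Of the 30 early factors measured, 0 were called higher and 4 lower in Th17 (13.3%, against 2.98% of all genes). The median difference was -0.33, against -0.03 over all genes. In unstimulated cells 4 of the 30 were lower too, against 2.28% of all genes, with a median of -0.41. The interaction with stimulation had a median of 0.07 over the list. The 4 lower after restimulation were Irf8 (-1.37, adjusted p = 0.0204), Egr2 (-1.09, 0.0428), Egr3 (-1.08, 0.0473) and Nfkbiz (-0.74, 0.000919). Egr2 read 12.46, 11.39, 10.91 and 11.01 in Th17 and 13.15 and 11.93 in Th1, so Th17 array 1 lay above Th1 array 2. The calls of Egr2, Egr3 and Irf8 were lost without Th1 array 1 and without Th17 array 2, 3 or 4. Nfkbiz, an atypical inhibitor of NF-kappaB that also activates some of its targets, did not overlap between the types (10.64 to 11.10 against 11.69 and 11.49) and kept its call without any 1 array. Its difference was -0.70 in unstimulated cells. Fos and Jun, the parts of AP-1, were at 10.42 to 11.19 and 11.30 to 11.89 in Th17, against 10.30 and 10.78, and 9.99 and 11.10, in Th1. Neither was called (adjusted p = 0.869 and 0.218), and unstimulated levels of both differed between arrays of a type, with Fos at 7.51 to 9.52 in Th17 and at 10.09 and 8.07 in Th1.

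The arrays differed in how strongly the induced genes responded. To place each array on a scale set by other samples, the genes that restimulation raised at least 2-fold on day 5, over both types, were taken: 160 genes (0.802% of all), of which 17 are in the cytokine list, 5 in the chemokine list and 18 in the early list. On day 15 their mean level after restimulation was 10.06 on Th17 array 1 and 9.23, 9.11 and 9.03 on Th17 arrays 2, 3 and 4, against 10.47 and 9.58 on Th1 arrays 1 and 2. Unstimulated parts lay at 8.16 to 8.29 in Th17 and at 8.44 and 8.45 in Th1. Th17 array 1 thus stood above Th1 array 2, and the other 3 Th17 arrays below both Th1 arrays. Of the 160 genes, 146 (91.2%) were highest on array 1 among the Th17 arrays, as were 20.8% of all genes, while array 4 was the highest for 51.4% of all genes, array 3 for 19.2% and array 2 for 8.56%. Likewise 148 (92.5%) were higher on Th1 array 1 than on array 2, as were 34.2% of all genes. The early factors showed a smaller gap between the Th17 arrays, with means of 11.61, 11.25, 10.86 and 10.97, against 11.77 and 11.25 in Th1. Between the types, 45 of the 160 were called lower (28.1%, against 2.98% of all genes) and 2 higher in Th17, with a median of -0.50. Without Th1 array 1 the 45 became 7 and the median -0.12, and without Th1 array 2 they became 91 and -0.87. Without Th17 array 1 they were 81, with the erythroid mean as a covariate 9, and in a model of only the 6 arrays 9. With the early gene mean as a covariate 29 were called lower and 7 higher, with a median of -0.22, and 18 of the 160 are themselves in that early list. Among all genes, 16 had an SD over 1 on the 4 restimulated Th17 arrays, and 12 of these belonged to the 160. The same was true of 5 genes on the unstimulated Th17 arrays. The widest was Il3 (SD 2.38), followed by Il2 (1.66), Ccl3 (1.62), Ccl1 (1.58) and Il13 (1.53).

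**Figure D1:**
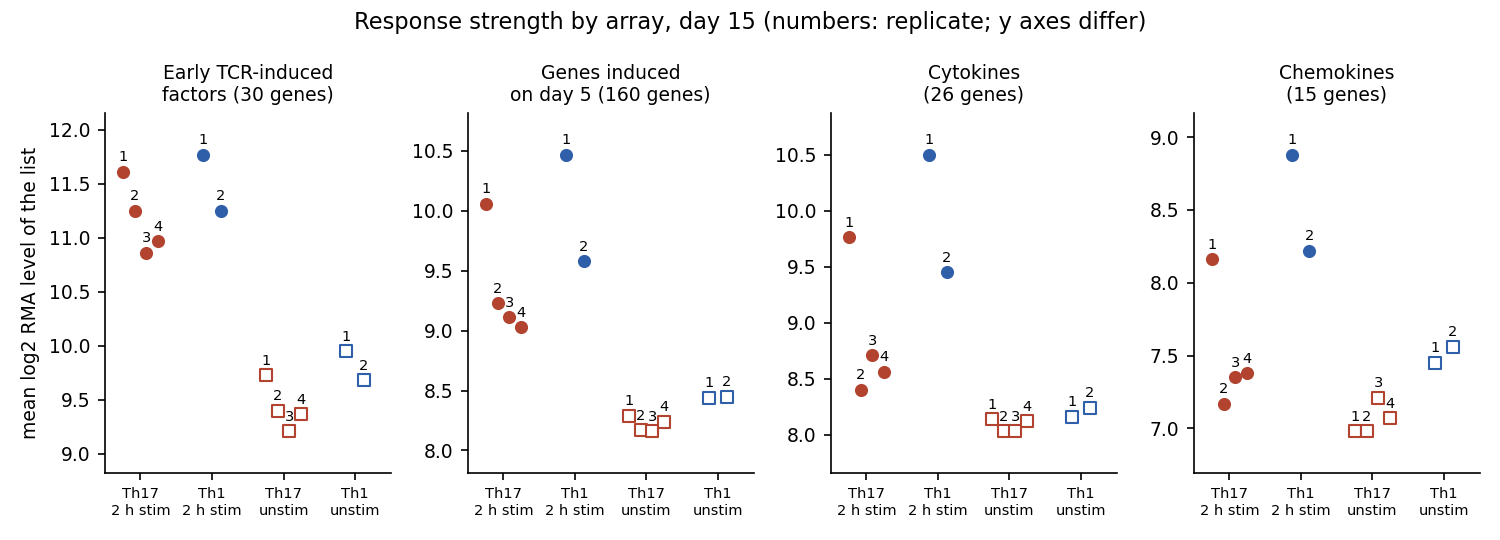
Mean log2 RMA level of 4 gene lists on each day 15 array, with restimulated arrays as filled circles and unstimulated ones as open squares, Th17 in red and Th1 in blue, and the replicate number above each point. For the genes induced on day 5, Th17 array 1 (10.06) lies between Th1 array 1 (10.47) and Th1 array 2 (9.58), and the other Th17 arrays lie at 9.03 to 9.23.

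Some cytokine genes were lower in Th17 after restimulation. Of 26 measured, 12 were lower in Th17 (46.2%, against 2.98% of all genes) and 1 was higher, with a median of -0.91. The mean of the list was 9.76, 8.40, 8.71 and 8.56 on the Th17 arrays and 10.50 and 9.45 on the Th1 arrays. Il3, a growth factor for blood progenitors and mast cells, read 11.42, 6.12, 8.21 and 6.67 in Th17 and 12.76 and 11.17 in Th1. Th17 array 1 was within the Th1 range, and the other 3 lay below it. The difference was -3.86 with an SE of 0.87 (limma adjusted p = 0.00664). That SE pools the spread of all 8 groups, while Il3 had an SD of 2.38 on the 4 Th17 arrays alone. In a limma model of only the 6 arrays its adjusted p was 0.18. Il13 read 11.42, 7.98, 8.68 and 8.68 in Th17 and 13.21 and 11.81 in Th1, 9.98-fold lower without overlap (-3.32, SE 0.58, adjusted p = 0.000738). Its SD on the 4 Th17 arrays was 1.53, and its adjusted p in the limma model of only the 6 arrays was 0.0728. In unstimulated cells Il13 stood at 7.36 to 7.94 in Th17 and at 7.42 and 7.49 in Th1. Il10, which restrains immune responses, behaved otherwise: it read 6.11, 5.67, 6.13 and 5.67 in Th17 and 10.43 and 8.16 in Th1. Th17 array 1 did not stand out, and the difference of -3.40 (adjusted p = 4.34e-05) kept its call without any 1 array. The Th17 levels lay below the array medians, so the size of this difference rests on values not shown to exceed background. Restimulation raised Il10 by 2.61 in Th1 (limma adjusted p = 0.00505), and in Th17 the change was 0.44 (0.441). The test of whether such changes differed between the types called no gene. A difference between these changes of Il10 is therefore not shown.

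The other type 2 cytokines went the same way as Il13. Il4 was at 7.38, 6.37, 6.58 and 6.24 in Th17 and at 10.57 and 7.75 in Th1 (-2.52, adjusted p = 0.00187), and Il5, which acts on eosinophils, at 7.13, 5.68, 5.76 and 5.67 against 10.11 and 7.57 (-2.78, 0.000396). Neither overlapped. With an adjusted p of 0.00364, Il6 was lower by 1.42 on the log2 scale at levels of 3.71 to 3.97 in Th17 and 6.01 and 4.42 in Th1, all below the array medians. Il2, the T cell growth factor, read 11.89, 8.32, 9.59 and 8.43 in Th17 and 12.37 and 11.00 in Th1 (-2.13, adjusted p = 0.0305). Csf2, which encodes GM-CSF, had a difference of -2.48 (0.0142), and Il21, a cytokine of helper cells for B cells, one of -2.50 (0.00928). For Il2, Csf2 and Il21, array 1 was the highest Th17 array and reached the Th1 range. Fasl, the death ligand, was at 9.02 to 10.27 in Th17 and at 11.56 and 10.28 in Th1 (-1.42, 0.00387). Only Osm, which encodes oncostatin M, was higher (0.48, 0.0380), a call lost without Th1 array 1 and without Th17 array 2, 3 or 4.

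The signature cytokines of both lineages were not called. Ifng read 13.23, 11.96, 12.13 and 11.95 in Th17 and 13.72 and 12.98 in Th1, a difference of -1.03 (adjusted p = 0.058) with Th17 array 1 inside the Th1 range. Ifng was thus well above the array medians in Th17 cells, where restimulation raised it by 1.20 (adjusted p = 0.0024). Il17a read 8.93, 6.85, 7.32 and 7.02 in Th17 and 6.59 and 6.38 in Th1, a difference of 1.05 (0.0509). Th17 array 1 was the highest here too, and the groups did not overlap. Il17f read 8.06, 7.19, 7.62 and 7.40 against 6.83 and 7.26 (0.52, 0.101). Tnf was at 11.78 to 12.89 in Th17 and at 13.48 and 12.07 in Th1 (-0.61, 0.297). These p-values do not show that the types were alike. The cytokine calls depended on Th1 array 1: without it 1 cytokine was called lower, Il10, and without Th1 array 2 there were 16. With the erythroid mean as a covariate 2 were called lower, as in a model of only the 6 arrays. With the early gene mean as a covariate 8 were called lower and 2 higher, with a median of -0.47.

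Of 15 chemokines, 5 were lower in Th17 (33.3%, against 2.98% of all genes) and 0 higher, with a median of -0.23. Ccl4 read 9.46, 6.90, 7.45 and 7.01 in Th17 and 12.51 and 10.30 in Th1 (-3.70, SE 0.53, adjusted p = 7.96e-05). Ccl3 read 12.41, 8.77, 9.90 and 9.22 against 13.79 and 12.95 (-3.29, 9.81-fold, 0.000432). Both are chemokines that attract effector T cells and monocytes, and neither overlapped between the types, although Th17 array 1 came within 1 log2 unit of Th1 array 2 in each. Xcl1, the ligand of XCR1 on cross-presenting dendritic cells, read 8.27, 7.10, 7.16 and 7.20 against 11.23 and 9.40 (-2.88, 1.63e-05). Ccl1, the ligand of CCR8, overlapped (11.38, 7.85, 9.29 and 8.27 against 12.88 and 11.23, a difference of -2.86, 0.0032). Ccl5 was at 12.64 to 12.88 in Th17 and at 13.41 and 13.40 in Th1 (-0.67, 0.00132), with a like difference of -0.81 in unstimulated cells. The calls of Ccl3, Ccl4, Ccl5 and Xcl1 were kept without any 1 array, and that of Ccl1 was lost without Th1 array 1. In a limma model of only the 6 arrays 3 chemokines were called lower, and Ccl3 was not among them (adjusted p = 0.081). Ccl20, the chemokine of Th17 cells that binds CCR6, was at 6.50 to 6.88 in Th17 and at 6.47 and 6.81 in Th1 and was not called. Cxcl10, induced by interferons, was at 10.31 to 11.66 in Th17 and at 10.96 and 10.26 in Th1 and was not called either.

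**Figure D2:**
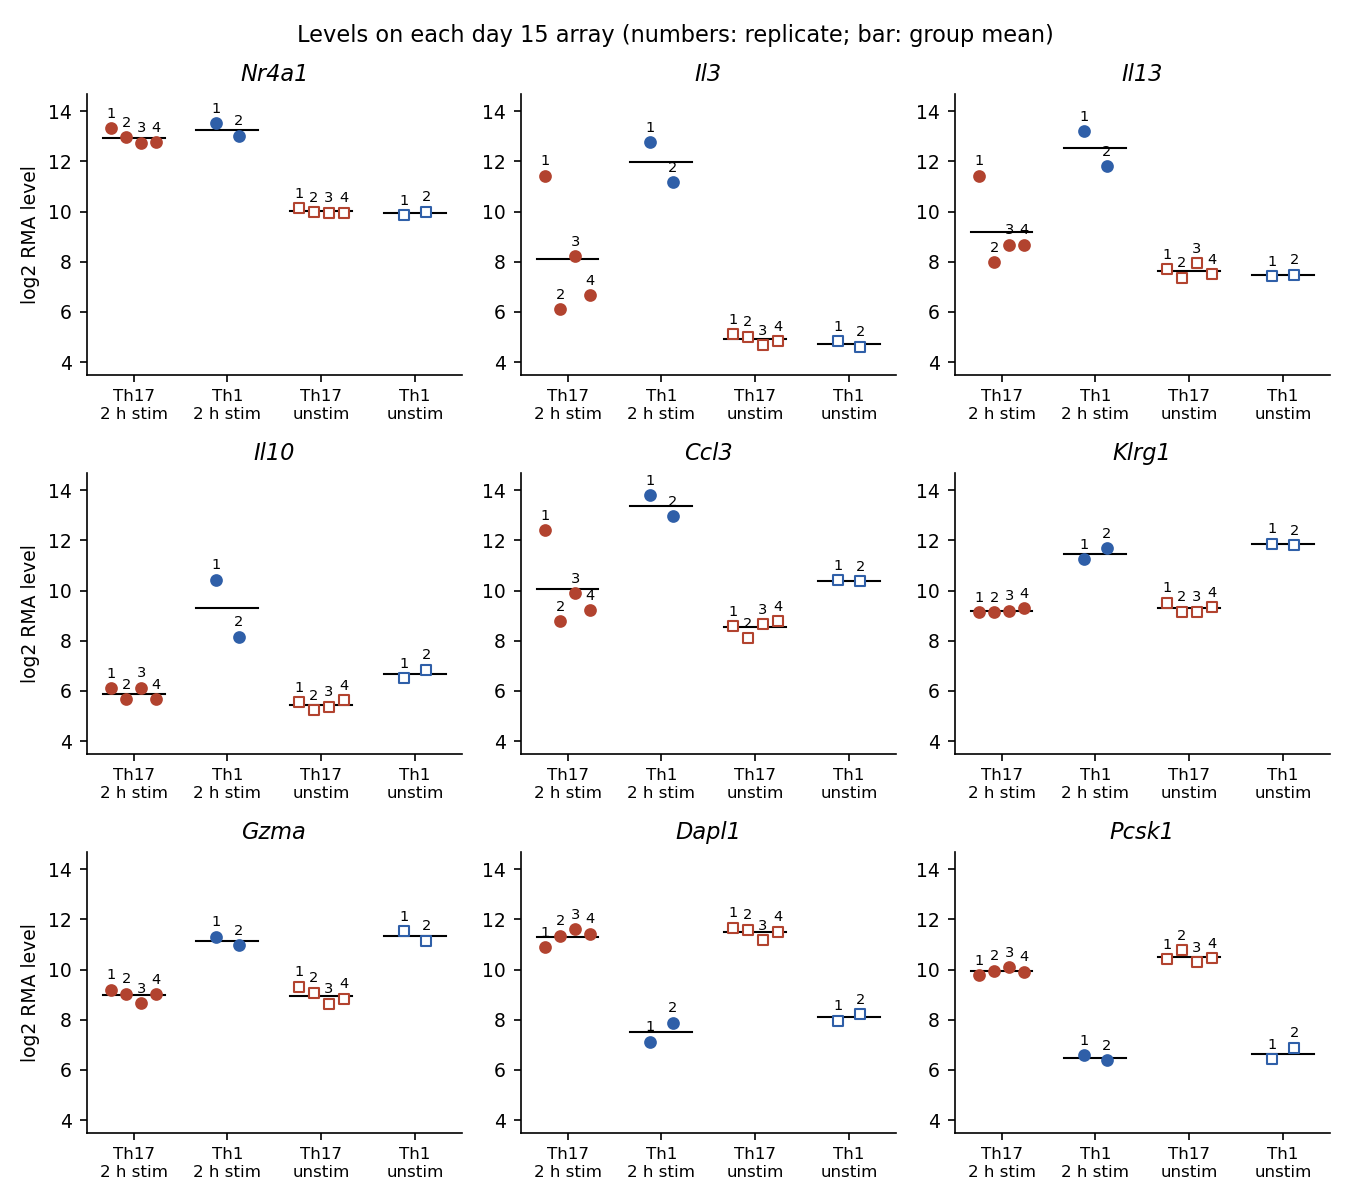
Log2 RMA levels of 9 genes on each day 15 array, restimulated arrays as filled circles and unstimulated ones as open squares, Th17 in red and Th1 in blue, with the replicate number above each point and the group mean as a bar. Il3, Il13 and Ccl3 are spread widely over the 4 restimulated Th17 arrays with array 1 on top (11.42, 11.42 and 12.41), whereas Klrg1, Gzma, Dapl1 and Pcsk1 lie apart between the types both with and without stimulation.

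Some genes that limit T cell signalling also differed. Of 20 feedback inhibitors, 4 were lower in Th17 and 1 higher, with a median of -0.33. Over all genes, 2.98% were called lower and 3.45% higher. Unstimulated cells also gave 4 lower and 1 higher, with a median of -0.23, against 2.28% and 1.88% of all genes. Rgs16, a brake on G protein signalling, read 11.56, 9.54, 9.56 and 9.36 in Th17 and 12.86 and 11.52 in Th1 (-2.18, adjusted p = 0.00205), with Th17 array 1 above Th1 array 2. The MAP kinase phosphatases Dusp4 and Dusp2 were lower by 1.35 and 0.86 on the log2 scale (0.00523 and 0.00319), while Dusp10 was higher by 0.51 (0.00875). Spry2, an inhibitor of receptor signalling to Ras, was at 6.13 to 6.26 in Th17 and at 7.44 and 6.97 in Th1 (-1.02, 1.84e-06) and alone of these kept its call without any 1 array. Among 15 genes of the TNF receptor family and costimulation, 5 were lower and 0 higher. Tnfrsf9 (4-1BB) read 10.30, 8.71, 8.95 and 8.82 against 11.48 and 10.51 (-1.80, 0.00116), Cd70 differed by -1.39, Tnfrsf4 (OX40) by -0.83 and Tnfrsf1b by -0.74. The last was Tnfrsf18 (GITR). Without Th1 array 1 none of these 5 was called, and the call of Tnfrsf4 was also lost without Th17 array 2 or 3. Il2ra, a receptor chain for IL-2, read 12.56, 11.59, 11.60 and 11.57 in Th17 and 12.62 and 11.93 in Th1 and was not called. Of the 13 NF-kappaB genes, 2 were lower, Nfkbiz and Bcl3, and the call of Bcl3 was lost without Th1 array 1 and without Th17 array 2, 3 or 4.

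Dapl1 led the genes higher in Th17: it read 10.88, 11.34, 11.60 and 11.42 in Th17 and 7.12 and 7.89 in Th1, a difference of 3.81 with an SE of 0.25 (adjusted p = 1.67e-09). Without stimulation its difference was 3.38. Pcsk1 averaged 9.93 ± 0.13 in Th17 (SD, n = 4) and 6.49 ± 0.13 in Th1 (n = 2), a difference of 3.45, and 3.83 unstimulated, with the Th1 levels below the array medians. Igfbp4, a binding protein for insulin-like growth factors, read 10.80, 11.12, 11.16 and 11.28 against 7.27 and 8.25 (3.33). None of the 3 overlapped, and Th17 array 1 was the lowest Th17 array for each. The membrane proteins Tmem176b and Tmem176a, whose genes are neighbours, were higher by 2.63 and 2.48, at 10.98 to 11.33 and 9.74 to 10.17 in Th17. Among the next by size were the olfactory receptor gene Olfr60 (2.30, and 1.22 unstimulated), the potassium channel gene Kcnh5 (2.20), Sestd1 (2.17), Il17re (2.08), Qpct (2.05), Tdrkh (1.99), Vax2 (1.96), Treml2 (1.95) and Mmp25 (1.92). Il17re encodes a receptor subunit for IL-17C, Qpct a glutaminyl cyclase, Vax2 a homeobox factor and Mmp25 a membrane-bound metalloprotease. All of these genes kept their call without any 1 array.

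**Figure D3:**
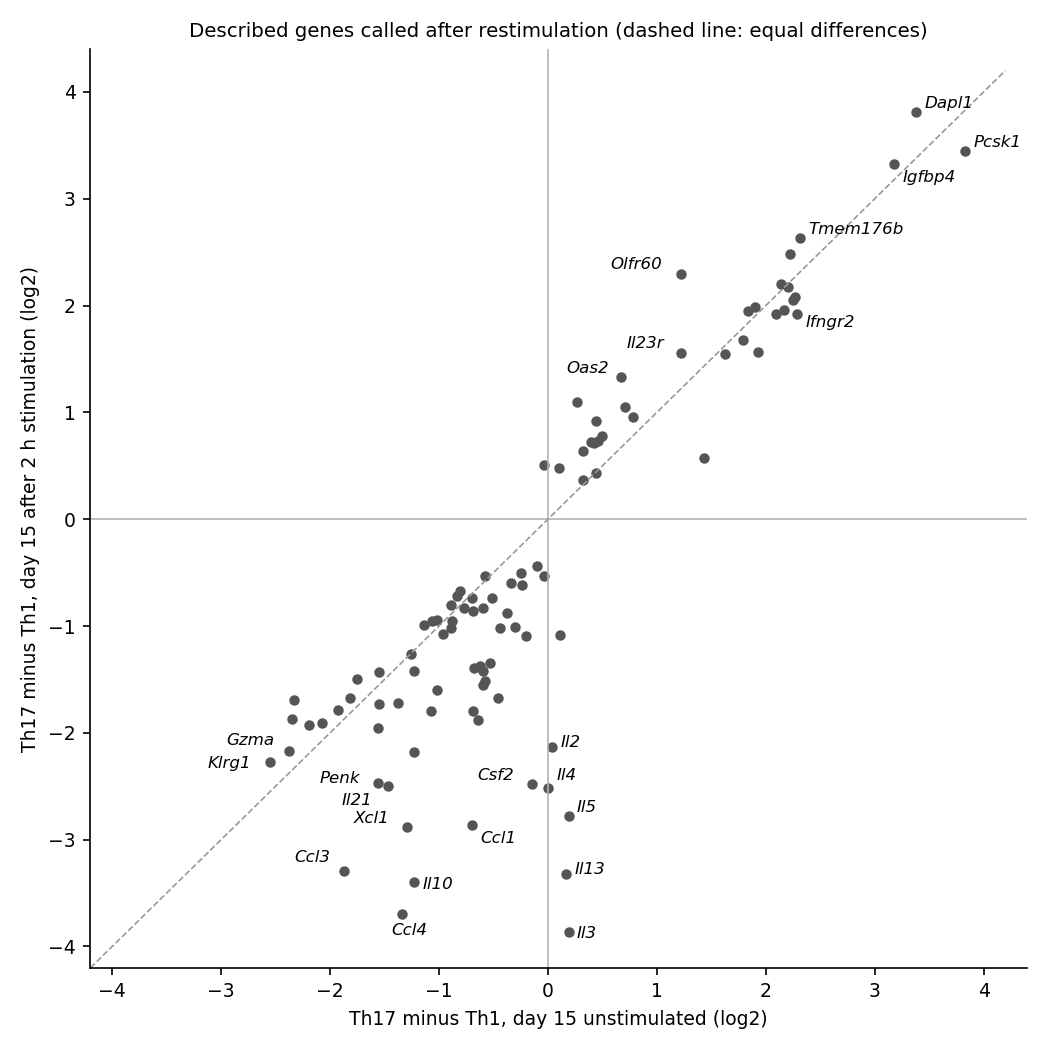
Th17 minus Th1 on day 15 in unstimulated cells (horizontal axis, log2) against the same difference after 2 h of stimulation (vertical axis, log2) for the described genes called after stimulation, with equal differences along the dashed line. Dapl1, Pcsk1, Klrg1 and Gzma lie near the line, and Il2, Il3, Il4, Il5 and Il13 lie near 0 on the horizontal axis and at -2.13 to -3.86 on the vertical one.

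Cytotoxic and terminal effector genes were lower in Th17. Of 22 measured, 13 were called lower (59.1%, against 2.98% of all genes) and 0 higher. The other 9 had differences below 0 too, and the median was -1.01. Klrg1, an inhibitory receptor of terminally differentiated effector cells, read 9.13, 9.14, 9.19 and 9.30 in Th17 and 11.24 and 11.68 in Th1 (-2.27, SE 0.17, 4.82-fold, adjusted p = 9.73e-09). Gzma, which encodes granzyme A, read 9.20, 9.04, 8.66 and 9.01 against 11.31 and 10.98 (-2.17, 4.49-fold, 3e-08). Gzmk and Gzmb differed by -1.73 and -1.43. The killer-cell lectin-like receptors Klrk1, Klrd1 and Klre1 differed by -1.93, -1.69 and -1.67, with Klre1 at 3.78 to 4.21 in Th17 and 5.87 and 5.60 in Th1, below the array medians. Cx3cr1, the fractalkine receptor, differed by -1.79 and Zeb2, a repressor that drives terminal differentiation, by -1.91. Prdm1, which encodes Blimp-1, differed by -0.94, Nkg7 by -0.53 and Prf1, which encodes perforin, by -0.99. In each of these the 4 Th17 arrays lay below both Th1 arrays. S1pr5, a receptor for sphingosine phosphate, was at 8.96 to 9.37 in Th17 and at 9.44 and 11.07 in Th1 and was not called (adjusted p = 0.0838), although unstimulated it differed by -2.21 (0.000516). Of the 13 calls, 11 were kept without any 1 array. Without Th1 array 1, 13 members were called lower, S1pr5 now among them. With the erythroid mean as a covariate there were 9. Unstimulated cells gave 14 calls lower, against 2.28% of all genes, and a median of -1.08. The 5 NK cell markers averaged 5.54 to 5.70 in Th17 and 6.11 and 6.49 in Th1, and their part in these differences was not tested.

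The helper lineage genes were mixed. Of 14 genes of the Th17 program, 6 were higher in Th17, 3 lower and 5 not called. Over all genes, 3.45% were called higher and 2.98% lower. Higher were Tmem176b, Tmem176a, Il17re, Il6ra, Il23r and Rora. Il6ra, a receptor chain for IL-6, was at 10.37 to 10.61 in Th17 and at 8.64 and 9.01 in Th1 (1.68, adjusted p = 3.83e-06). Il23r, the receptor for IL-23, was at 8.18, 8.04, 7.95 and 7.71 in Th17 and at 6.58 and 6.25 in Th1 (1.56, 3.83e-06). Rora, a nuclear receptor of Th17 differentiation, was higher by 0.43 (0.0205), a call lost without Th1 array 1. Lower were Ahr, Batf and Stat3, factors that also act in Th17 differentiation, by 1.01, 0.50 and 0.44 on the log2 scale (0.00168, 0.0107 and 0.0112). Their unstimulated differences were -0.30, -0.25 and -0.10, none of them called, and without Th1 array 1 all 3 calls were lost. Ccr6 was at 6.71 to 7.16 in Th17 and at 6.17 and 6.12 in Th1 (0.75, 0.0657). Of 12 Th1 genes, 4 were lower and 0 higher, among them Il12rb2 (-1.07, 0.00828) and Il18rap (-0.80, 0.00417), receptor chains for IL-12 and IL-18, whose calls were both lost without Th1 array 1. Tbx21 was at 11.30 to 11.61 in Th17 and at 12.05 and 12.04 in Th1 (-0.60, 0.0672), and Eomes, its relative, at 6.72 to 7.00 and 8.08 and 8.53 (-1.46, 0.0744). Of 7 Th2 genes, 4 were lower, Il4, Il5, Il13 and Ccr8 (-1.55), and 1 was higher, the chemokine receptor gene Ccr4 (1.55, 0.00267). None of these 5 was called without Th1 array 1.

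Of 10 Treg genes, 5 were lower in Th17 (50%, against 2.98% of all genes) and 0 higher. In unstimulated cells 2 of the 10 were lower, against 2.28% of all genes. Foxp3, the defining factor of regulatory T cells, read 9.38, 9.62, 9.74 and 9.36 in Th17 and 10.06 and 10.90 in Th1 (-0.95, adjusted p = 0.0487). That call was lost without Th1 array 2 and without any 1 Th17 array, though not without Th1 array 1. Ikzf2, which encodes Helios, differed by -1.26 (0.00409), Lrrc32, the docking protein GARP, by -1.67 (0.000525) and Nrp1 by -0.95 (0.0013). Lrrc32 and Nrp1 kept their calls without any 1 array, and that of Ikzf2 was lost without Th1 array 2. The fifth was Tnfrsf18 (-0.60, 0.0019). Among 14 inhibitory receptors, 6 were lower (42.9%) and 1 higher (Cd96, named after its value was seen), with a median of -0.51. Unstimulated cells gave 8 lower (57.1%) and 1 higher, with a median of -0.79. Pdcd1 (PD-1) read 10.90, 9.81, 10.03 and 9.85 in Th17 and 12.34 and 11.54 in Th1 (-1.80, 3.47-fold, 2.25e-05). Havcr2 (Tim-3) differed by -1.95, Entpd1, the ectonucleotidase CD39, by -1.72 (9.09e-09), Cd160 by -1.60 and Tigit by -1.02. Of these 5, only the call of Havcr2 was lost when 1 array was left out, Th1 array 1. Other large deficits in Th17 outside the lists were Penk, the proenkephalin gene (-2.47), Ccn4, a matricellular protein gene (-1.88), and Hrh4, the histamine H4 receptor gene (-1.87), of which Hrh4 kept its call without any 1 array.

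Some stem-like memory genes were higher in Th17. Of 15 stem-like memory genes, 6 were higher (40%) and 1 lower, with a median of 0.37. Over all genes, 3.45% were called higher and 2.98% lower. Ccr7, the lymph node homing receptor, read 12.15, 12.13, 11.50 and 11.53 in Th17 and 10.31 and 10.21 in Th1 (1.57, SE 0.22, 2.96-fold, adjusted p = 6.57e-05). Id3 was higher by 1.05 (0.00234), the survival factor Bcl2 by 0.73 (0.00111), Slamf6 by 0.64 (0.00448) and Lef1, a partner of β-catenin, by 0.37 (0.0365). Foxp1 was lower (-0.62, 0.000867). Ccr7 and Id3 kept their calls without any 1 array, and without Th1 array 1 the 6 became 3. Il7r was at 12.30 to 12.45 in Th17 and at 11.82 and 11.95 in Th1 and was not called (0.48, 0.129). Among 18 homing receptors 2 were higher, Ccr7 and Ccr4, and 4 lower, including Itga1, a chain of a collagen receptor (-1.50), with a median of -0.21. Among 20 cytokine receptors, Ifngr2, the signalling chain of the IFN-γ receptor, was higher beside Il6ra and Il23r: it read 10.55, 10.62, 9.92 and 10.05 in Th17 and 8.68 and 8.05 in Th1 (1.92, 1.26e-05). Bcl2l1, another survival gene, was lower (-0.88), a call lost without Th1 array 1 (adjusted p = 0.0571). Bik, which promotes cell death, was higher (0.96, 1.67e-07) and kept its call without any 1 array.

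Cell cycle genes were higher in Th17. Of 26 measured, 20 were higher (76.9%) and 0 lower, with a median of 0.51. Over all genes, 3.45% were called higher and 2.98% lower. List means were 10.21, 10.38, 10.46 and 10.65 in Th17 and 9.94 and 9.91 in Th1. Th17 array 1 was the lowest Th17 array here. Bub1, a spindle checkpoint kinase, read 9.59, 9.90, 10.04 and 10.12 in Th17 and 9.29 and 8.69 in Th1 (0.92, adjusted p = 0.00187), and Cdc20, which activates the anaphase complex, 9.77 to 10.38 against 9.24 and 9.37 (0.78, 0.0013). Birc5, which encodes survivin, and Kif20a, a mitotic kinesin, followed (0.72 and 0.71). Without Th1 array 1, 7 members were called, and 4 kept their call without any 1 array. A model of only the 6 arrays called 4, and one with array weights 3. In unstimulated cells 6 of 26 were higher, as were 1.88% of all genes. Of 18 interferon-stimulated genes, 4 were higher and 0 lower, among them the antiviral genes Oas2 (1.33, 0.000836) and Mx2 (1.10, 0.0012), and without Th1 array 1 none was called. The lists for ribosome biogenesis (18 genes), glycolysis (13) and cholesterol synthesis (13) each had 1 member called higher. The 16 genes of amino acid transport had 1 called lower and the 11 heat shock chaperones 0 in either direction.

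**Figure D4:**
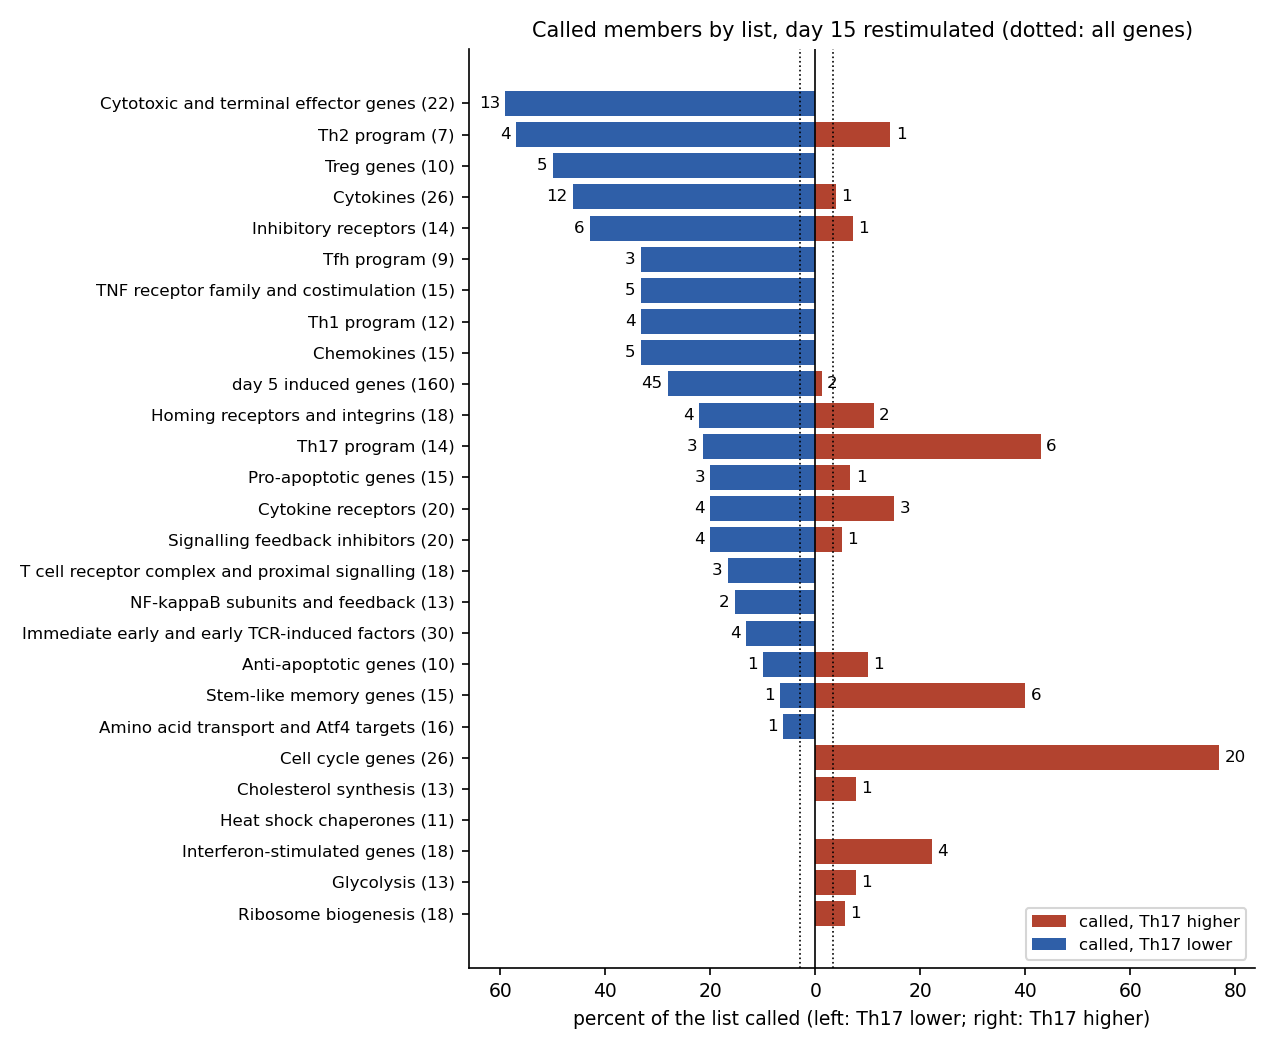
Percent of each list called at an adjusted p under 0.05 between Th17 and Th1 on day 15 after restimulation, with genes higher in Th17 to the right in red and genes lower in Th17 to the left in blue, the number called beside each bar and the number measured in brackets. Dotted lines mark all 19938 genes (3.45% higher, 2.98% lower), and the cell cycle list reaches 76.9% to the right and the cytotoxic list 59.1% to the left.

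Unstimulated Th17 and Th1 cells of day 15 differed at 828 genes (4.15%), 374 higher (1.88%) and 454 lower (2.28%), and 477 of the genes called with non-overlapping groups after restimulation were called in the same direction there. Whether the difference between the types changed with stimulation was tested as an interaction. It called 0 genes in limma, and 1216 genes (6.1%) had an unadjusted p under 0.05. Interaction estimates were -4.05 for Il3, -3.49 for Il13 and -2.97 for Il5, with adjusted p-values of 0.591, 0.291 and 0.193. For Klrg1 and Pcsk1 the estimates were 0.28 and -0.38. These tests therefore show no gene whose difference changed with stimulation. The count was 272 without Th1 array 2, whose response was the weaker of the 2 Th1 arrays, and 12 without Th17 array 1. Left out singly, the other arrays gave 0 to 2.

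On day 5 after transfer, restimulated Th17 and Th1 cells differed at 793 genes (3.98%), 589 higher (2.95%) and 204 lower (1.02%). This comparison did not pair the arrays. The change of the difference, day 15 minus day 5, was called for 188 genes (0.943%), 86 with a more positive (0.431%) and 102 with a more negative difference on day 15 (0.512%). The split depended on scaling, with 214 more positive and 120 more negative after cyclic loess and 86 and 61 after centring on array medians. On day 15 Il17a averaged 7.53 ± 0.95 in Th17 (SD, n = 4) and 6.48 ± 0.15 in Th1 (n = 2), and on day 5 it averaged 10.27 ± 0.05 in Th17 and 6.49 ± 0.04 in Th1 (n = 3 each). Its difference fell by 2.73 on the log2 scale (adjusted p = 0.0025), and that of Il17f moved by -2.74 (3.04e-06). The differences of Il23r (-1.84), Ccl20 (-1.51) and Rora (-0.89) moved the same way, and 5 of the 14 Th17 program genes were called, all in that direction. Differences of cytotoxic genes were more negative on day 15: Gzmb by -1.23, Gzmk by -1.13, Gzma by -1.10, Klrd1 by -1.50 and Klre1 by -1.56, among 6 of 22 called. Lrrc32 (-2.14), Foxp3 (-1.87), Tnfrsf9 (-1.89), Cd160 (-1.81) and Tigit (-1.08) did so as well. On day 5 the differences of Foxp3 and Tnfrsf9 had been 0.92 and 0.09. Dapl1 moved the other way by 2.91 (adjusted p = 6.92e-05): it stood at 11.31 ± 0.31 in Th17 and 7.50 ± 0.55 in Th1 on day 15, and at 7.12 ± 0.47 in Th17 and 6.22 ± 0.28 in Th1 on day 5. Kcnh5 (1.53), Mmp25 (1.28), Bub1 (1.05) and Treml2 (1.01) followed Dapl1. Of the 26 cell cycle genes 6 were called, all with a more positive difference on day 15. On day 5 itself 25 of the 26 had a difference below 0, with a median of -0.12 and 0 called. Pcsk1 and Tmem176b differed by 2.83 and 2.78 on day 5, and the change to day 15 was not called for either. Of the cytokines, Il13, Il10 and Il4 were lower in Th17 on day 5 already (-2.27, -1.62 and -2.87), whereas Il3 and Ccl3 were not called then (-1.04 and -0.48).

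**Figure D5:**
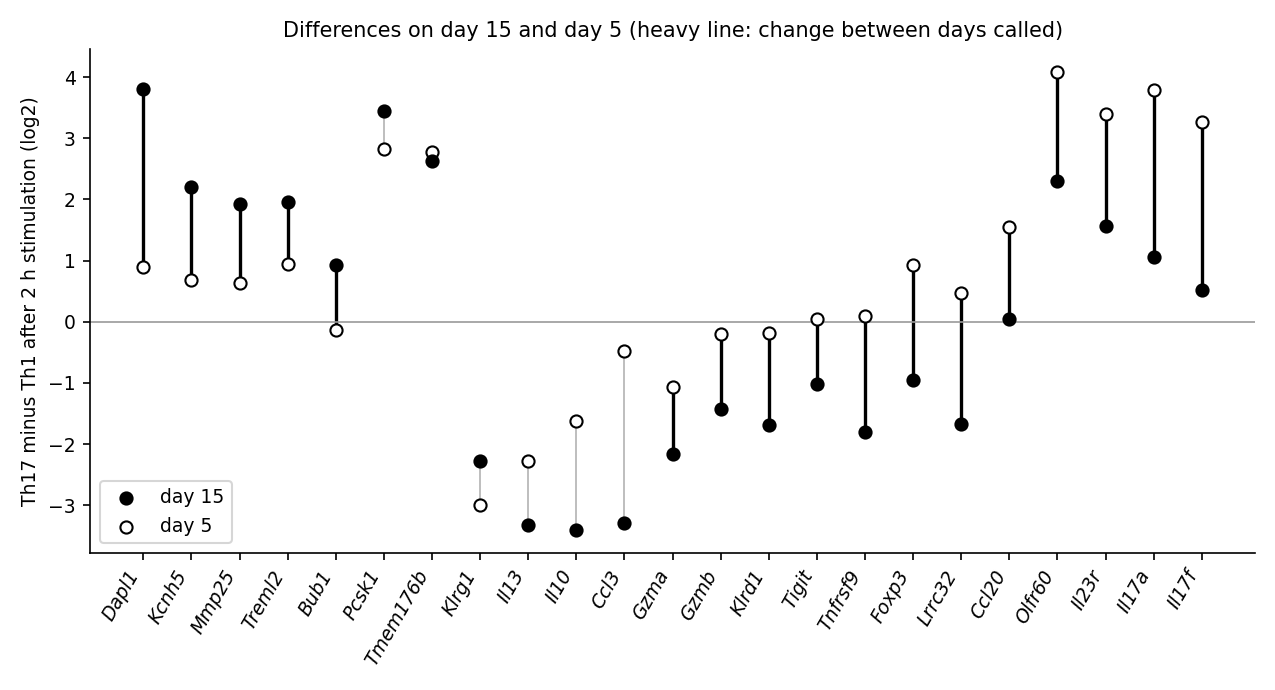
Th17 minus Th1 after 2 h of stimulation (log2, vertical axis) on day 15 (filled circles) and day 5 (open circles) for 23 genes, with a heavy line where the change between the days was called. Il17a and Il17f lie at 1.05 and 0.52 on day 15, against 3.78 and 3.26 on day 5, and Dapl1 lies at 3.81 on day 15, against 0.89 on day 5.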

How the data were processed

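The series holds 28 mouse arrays, 1 for each sample part. The authors deposited log2 values that Affymetrix Expression Console computed by RMA, per the submitters' processing notes, and software versions were not stated there. RMA equalises the arrays' distributions, so an overall shift between arrays would be removed. Of 35556 probe sets, the 21789 with 1 symbol were kept, using the probe set of highest mean for each gene (19938 genes).

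One limma 3.58.1 model (R 4.3.3) took in the 24 arrays of transferred cells in 8 groups, leaving 16 residual degrees of freedom. Calls use the Benjamini-Hochberg adjusted p over all 19938 genes, with a limit of 0.05. The members and the 34 gene lists (474 of 526 entries matched) were chosen with earlier results of these data known. Named genes are the 15 largest non-overlapping called differences each way, up to 5 called members of each list, a panel, members of 5 lists, the 8 largest called interactions each way and markers; within this rule, genes were picked for description after their values were seen. The fit was also run on simulated data, with independent noise and the same spread of a gene in every group. That setting is simpler than these arrays, so the run does not bear on the reliability of the calls here. No sample was dropped or imputed in the main model. Alternatives were another scaling, probe set choice, filter, prior, weights, blocks, covariates and leaving out each array, and an array left alone in its group was assumed to vary like the others.

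On day 15 equal replicate numbers were not taken as pairs in the main model. Deviations of Th17 and Th1 arrays from their group means correlated at 0.65 for number 1 and 0.07 for number 2 after restimulation, over 9969 genes. With 2 Th1 arrays the deviations of the 2 mirror each other, so these values cannot decide whether the arrays were paired. On day 5 same-numbered arrays correlated at 0.44, 0.48 and 0.21, and differently numbered ones at -0.43 to 0. Deviations cancel within a group there too, so these values are not independent of each other. Pairing on day 5 was not tested, and the labels do not state it. The main model still used no pairs on either day, and the block for day 5 was run only as an alternative.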

Additional observations from a re-analysis of the deposited data

Results flagged for a closer look

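On some genes 1 of the 4 restimulated Th17 arrays lay far from the other 3, by Dixon's criterion, applied to the 118 described genes and to the list means. Chance alone meets it in about 1 in 20 groups. These genes were picked after their values were seen, so the number flagged cannot be judged against that rate. Array 1 was the high one for Myc (11.87), Ifng (13.23), Il5 (7.13), Xcl1 (8.27), Rgs16 (11.56), Tnfrsf9 (10.30), Tnfrsf4 (12.23), Il2ra (12.56) and Zeb2 (8.53). It was also high for the mean of the Th2 list (9.42) and of the TNF receptor and costimulation list (10.20). It was the low one for Il17re (8.52) and Mmp25 (8.23). Array 3 was high for the myeloid marker Itgam (6.86).

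For other genes the difference between Th17 and Th1 after restimulation changed between the days, by limma's interaction test over all genes. The change, day 15 minus day 5, was negative for the Th17 genes Il17f (-2.74), Il17a (-2.73), Il23r (-1.84), Ccl20 (-1.51) and Rora (-0.89). It was negative for the effector genes Klre1 (-1.56), Klrd1 (-1.50), Gzmb (-1.23), Gzmk (-1.13) and Gzma (-1.10). The same held for Lrrc32 (-2.14), Foxp3 (-1.87), Tnfrsf9 (-1.89), Cd160 (-1.81), Olfr60 (-1.78), Tigit (-1.08), Tnfrsf18 (-0.66), Spry2 (-0.65) and the erythroid marker Slc4a1 (-1.56). The change was positive for Dapl1 (2.91), Kcnh5 (1.53), Mmp25 (1.28), Bub1 (1.05), Treml2 (1.01) and Cdc20 (0.97).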

How the results depend on the processing

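The count of genes called between Th17 and Th1 after restimulation on day 15 (1282) was 394 in a model of the compared groups alone, 337 with array weights, and 619 to 2391 when 1 array was left out, lowest without Th1 array 1 and highest without Th1 array 2. The unstimulated count (828) was 1581 with array weights and 283 to 828 when 1 array was left out, with 283 without Th1 array 2 and 421 without Th1 array 1. The interaction with restimulation (0) gave 1 call with only the compared groups, 1 with a random block for sample parts, 3 with the early gene mean and 5 with the erythroid mean as a covariate, and 0 to 272 when 1 array was left out. The interaction with day (188) gave 70 with only the compared groups, 334 after cyclic loess, 26 with array weights, 411 with the erythroid mean as a covariate, and 107 to 557 when 1 array was left out. The 557 came without Th1 array 2, 435 without Th17 array 1, 116 without Th17 array 3 and 107 without Th17 array 2. Genes called higher made up 45.7% of the 188, against 64.1% after cyclic loess and 58.5% after centring. The causes were not tested.

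With the replicate number as a block, which the labels do not tie to shared mice or days, the counts were 1194 after restimulation, 990 unstimulated, 250 for the interaction with day and 1 for that with restimulation. Of the 160 genes induced on day 5, this block called 14 higher and 48 lower with a median of -0.26, and of the cell cycle genes 12. For the day 5 comparison the block, chosen after seeing the data, gave 1116 calls against 793.

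No described gene called between the types changed sign under these alternatives, but Myc, Tnf, Cd69, Cxcl10, Ccl20 and Atf3, which were not called, did under at least 1. With 2 Th1 arrays, differences that rest on 1 of them cannot be checked within these data. Each difference rests on 6 arrays, while the spread behind its p-value was pooled over 24 arrays. A model of only the 6 arrays called 394 genes rather than 1282. Levels near the array medians are not shown to exceed background.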
